A study of Cucurbita pepo with 12 samples.

Results

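Pollen of zucchini plants grown with copper sulfate in the soil was set against pollen of plants grown without added copper, gene by gene, on the log2(FPKM + 1) scale. FPKM is a transcript level per length of transcript and per total of reads. The comparison takes in the 11185 genes, of 27868 in the deposited table, whose mean over the 4 pollen libraries was at least 1 FPKM. All plants were Cucurbita pepo of the cultivar Costata Romanesco, germinated for 10 days and then grown singly in pots of 500 g of soil for 60 days, until flowering. The soil of the treated plants held 320 mg/kg of copper sulfate pentahydrate (CuSO4), about 80 mg/kg of copper, and the control soil received none. Pollen was also sequenced from plants given the same amount of copper as CuO nanoparticles or as CuO of larger particle size (bulk CuO), each at 100 mg/kg. Root and leaf were sequenced under the same 4 treatments, 12 libraries in all. With 1 library for each organ under each treatment, a difference is described by its size and has neither a replicate check nor a p-value. The series text speaks of 3 biological replicates per treatment, and whether a library pools plants is not stated in the labels.

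A pollen grain is the male gametophyte of a flowering plant. It leaves the anther with a store of transcripts that the germinating grain and the growing pollen tube draw on. Copper is a cofactor of plastocyanin in photosynthesis, of cytochrome c oxidase in respiration and of a class of superoxide dismutases, and it is toxic in excess. In Arabidopsis, copper transporters of the COPT family are needed for normal pollen. The IDs of the table are not paired with names in it, and 0 of them occur in the RefSeq gene table, so no gene function or sequence is given and a comparison names no more than 2 genes in each direction.

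The most abundant transcripts of the pollen libraries were mostly low in root and leaf. The 100 genes with the highest mean over the 4 pollen libraries averaged 1526 to 8567 FPKM there and made up 36.2% of the summed FPKM of the CuSO4 library, 37.5% under bulk CuO, 37.2% under nanoparticles and 40.2% of the control library. In the 8 root and leaf libraries the same genes made up 0.282% to 0.805%, and 74 to 82 of the 100 lay below 1 FPKM. The genes were chosen by their pollen level, so their large share in pollen is set by the choice. Genes at 1 FPKM or more numbered 11569 in CuSO4 pollen, 11446 under bulk CuO, 10967 under nanoparticles and 10309 in control pollen. The table gives no read totals. Relative depth, read from how the smallest values are spaced, was 1.15 for the CuSO4 library, 0.986 for bulk CuO and 1.02 for nanoparticles, with control pollen at 1. The CuSO4 library was thus the deepest of the pollen libraries and the one with the most genes listed above 0, 19274 against 17202 in the control.

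Genes past the submitters' threshold of 2.3 on the log2 scale, a 4.92-fold difference in FPKM + 1, were nearly all higher under CuSO4. Of the 11185 genes, 218 (1.95%) were higher and 9 (0.0805%) were lower in CuSO4 pollen than in control pollen. Beyond a log2 difference of 4 there were 27 higher genes and 2 lower ones. This imbalance was found in every level class below 1000 FPKM, and in the bulk of the genes the libraries lay close together. The median difference over all genes was 0.07, the quartiles were -0.15 and 0.36, and the standard deviation (SD) over genes was 0.67. A gene can pass the threshold only if its higher library is at 3.92 FPKM or more, a level that 6533 genes reached in CuSO4 pollen and 5981 in control pollen. The counts depend on the constant inside the logarithm. A constant of 0.1 gave 564 higher and 30 lower genes, and a constant of 5 gave 42 and 1. The excess of higher genes was not particular to CuSO4. Against the same control library, on the log2(FPKM + 1) scale, bulk CuO pollen had 162 genes higher and 17 lower past 2.3. Nanoparticle pollen had 28 higher and 10 lower.

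**Figure D1:**
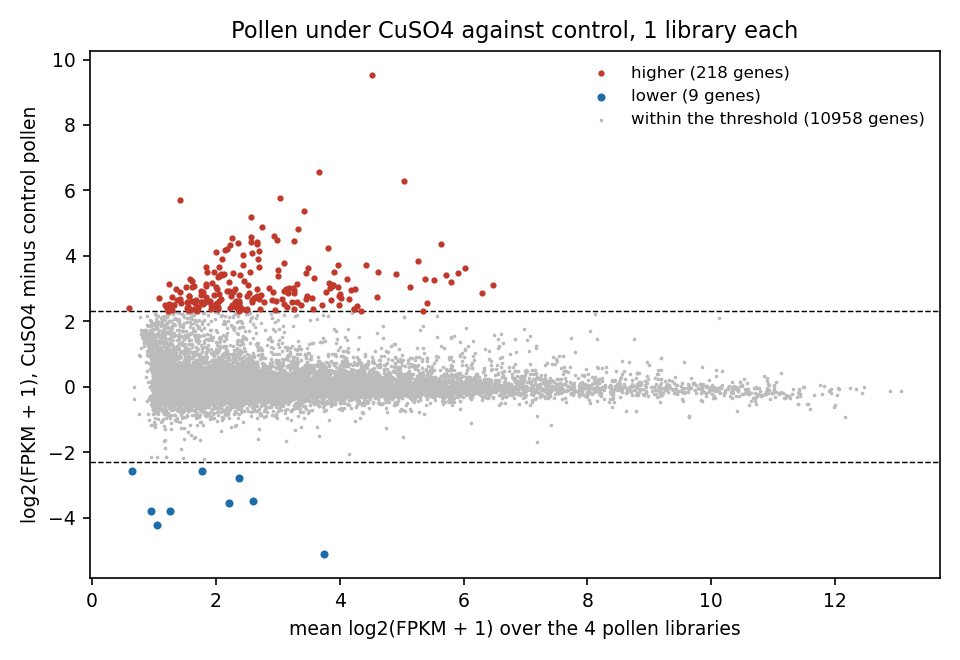
Difference in log2(FPKM + 1) between CuSO4 and control pollen (y axis) against the mean log2(FPKM + 1) over the 4 pollen libraries (x axis), 1 point per gene, with dashed lines at 2.3 and -2.3. The 218 higher genes spread over low and middle levels, the 9 lower genes are few and mostly low, and the most abundant genes lie in a narrow band just below 0.

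The leading higher genes were at or near 0 in control pollen and among the well-expressed transcripts of CuSO4 pollen. Cp4.1LG12g07900 had the largest difference, with 741 FPKM in CuSO4 pollen, 379 FPKM under nanoparticles, and a listing at 0 under bulk CuO and in the control. It was also listed at 0 in all 8 root and leaf libraries. Its value under bulk CuO thus stood with the control, and its value under nanoparticles with CuSO4. Cp4.1LG02g02060 followed, with 112 FPKM in CuSO4 pollen, 132 FPKM under bulk CuO, 0.435 FPKM under nanoparticles and 0.202 FPKM in the control, a log2 difference from the control of 6.56. Here the bulk CuO library was high together with CuSO4, and the nanoparticle library was low together with the control. The genes ranked 3 to 10 had log2 differences between 4.61 and 6.30. They stood at 28.3 to 281 FPKM in CuSO4 pollen and at 0 to 2.59 FPKM in control pollen, ranges that the ranking by difference itself sets apart. A listing at 0 can be a failed estimate, and no fold is given against one.

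The 9 lower genes stood at 0 to 0.246 FPKM in CuSO4 pollen, against 4.99 to 42.1 FPKM in control pollen, levels by which they were chosen. Cp4.1LG03g18230 led them, with 0.246 FPKM in CuSO4 pollen, 40.3 FPKM under bulk CuO, 14.0 FPKM under nanoparticles and 42.1 FPKM in the control, a log2 difference from the control of -5.11. Among the pollen libraries it was low under CuSO4 alone, and the other 3 did not reach down to that level. It was at most 0.708 FPKM in any root or leaf library. Cp4.1LG09g11020 was listed at 0 in CuSO4, bulk CuO and nanoparticle pollen and at 17.7 FPKM in control pollen. It was at most 0.423 FPKM in root and leaf, so that the control pollen library was the single library of the series with more than a trace of it. Of the 9 genes, 7 were listed at 0 in CuSO4 pollen, 3 under bulk CuO and 4 under nanoparticles. Without genes listed at 0 in either library there were 167 higher and 2 lower genes.

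**Figure D2:**
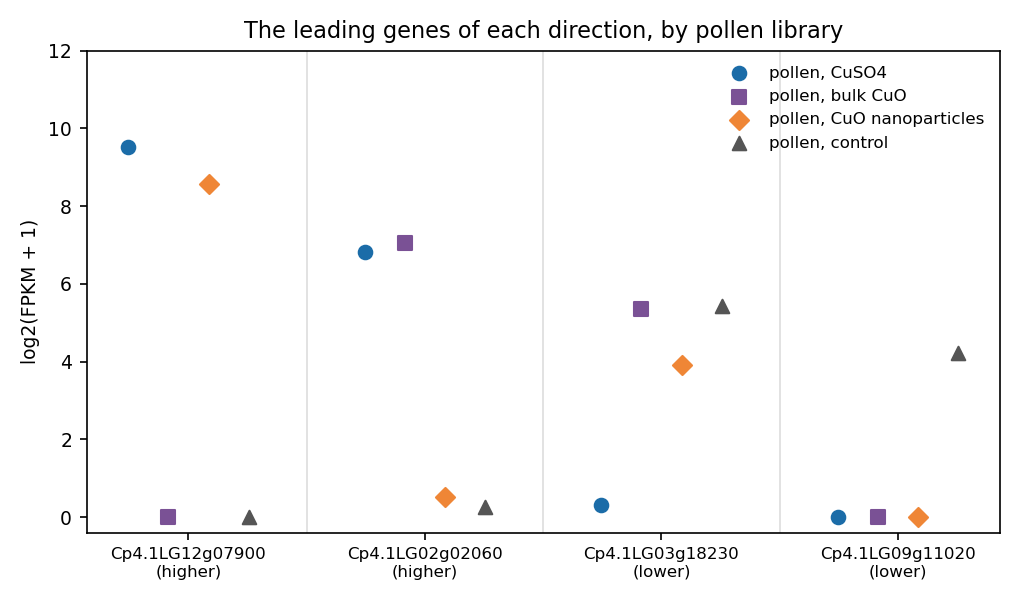
Level in log2(FPKM + 1) (y axis) of the 2 leading higher and the 2 leading lower genes (x axis) in the 4 pollen libraries, 1 point per library. Cp4.1LG02g02060 is high under CuSO4 and bulk CuO at 112 and 132 FPKM, and Cp4.1LG03g18230 is low under CuSO4 alone, at 0.246 FPKM.

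Most of the 218 higher genes were low in the control library. In control pollen 51 of them were listed at 0, 80 lay above 0 and below 1 FPKM, 65 lay from 1 to below 5 FPKM and 22 were at 5 FPKM or more, the highest at 28.2 FPKM. In CuSO4 pollen 202 were at 5 FPKM or more, 139 at 10 FPKM or more and 13 at 100 FPKM or more, and the lowest stood at 3.98 FPKM. Of the 1188 genes kept that were below 1 FPKM in control pollen, 131 (11.0%) were higher past the threshold, against 87 of the 9997 others (0.87%). The control level enters the difference itself, so this contrast is given as a description. Together the 218 genes held 0.961% of the summed FPKM of CuSO4 pollen and 0.0608% of that of control pollen.

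The difference between the libraries changed with expression level. Among genes with a mean of 1 to 2 FPKM in pollen the median log2 difference was 0.16, and it was 0.12 from 2 to 5 FPKM, 0.07 from 5 to 10 FPKM and 0.04 from 10 to 20 FPKM. From 100 to 1000 FPKM it was -0.02, and for the 172 genes at 1000 FPKM or more it was -0.14. At a difference of 1 or more, a level chosen after the data were seen, 12.6% of the genes from 1 to 2 FPKM were higher and 0.878% lower. From 100 to 1000 FPKM these shares were 3.47% and 0.278%. The share of higher genes past 2.3 peaked in the middle, at 3.76% (49 of 1302) from 10 to 20 FPKM, and it was 0 of 172 among the most abundant genes. Of the 100 most abundant pollen genes, 88 were lower and 12 higher in CuSO4 pollen than in control pollen, with log2 differences between -0.93 and 0.41 and a median of -0.19. The other materials gave much the same against this control. Under bulk CuO 81 were lower and 19 higher, with a median of -0.12, and under nanoparticles 91 and 9, with a median of -0.19. FPKM is relative to the whole library. The part of the smaller share of the leading transcripts in the values of the other genes was not tested. CuSO4 pollen also had more genes at 1 FPKM or more than control pollen, 11569 against 10309. Whether this count goes with the shift of the low genes was not tested. CuSO4 pollen had a depth of 1.15 and a median difference from the control of 0.074 over all genes. Bulk CuO pollen, at a depth of 0.986, had a median of 0.066, and nanoparticle pollen, at 1.02, one of 0.117. The part of depth in the shift was not tested.

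**Figure D3:**
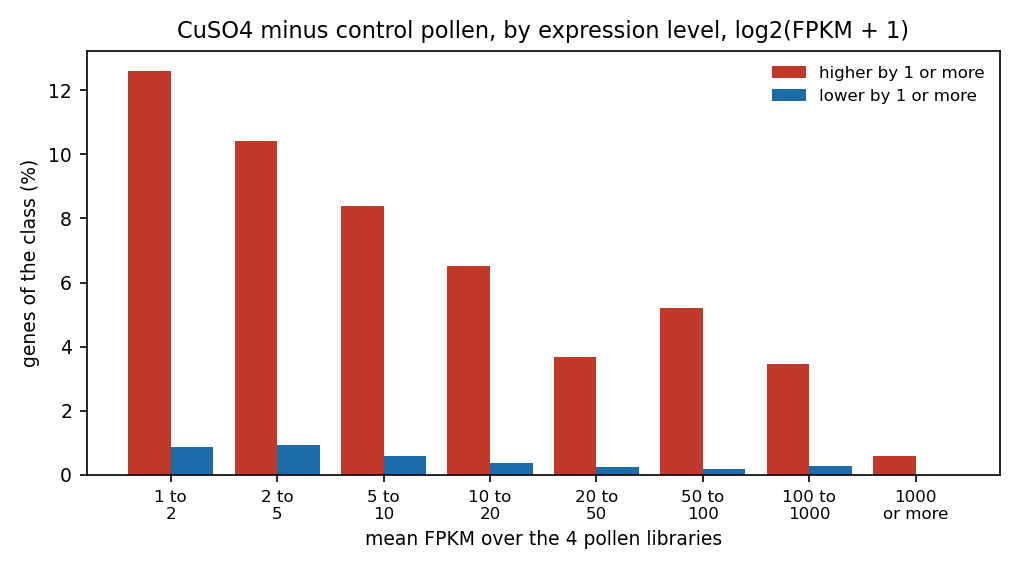
Share of genes (y axis, percent of the class) that were higher or lower by 1 or more on the log2(FPKM + 1) scale in CuSO4 than in control pollen, by mean FPKM over the 4 pollen libraries (x axis). Higher genes outnumber lower ones in every class, from 12.6% against 0.878% at 1 to 2 FPKM to 0.581% against 0% at 1000 FPKM or more.

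Most of the higher genes, like most of all genes kept, were also measured in root and leaf. A mean of 1 FPKM or more in both root and leaf was found for 169 of the 218 (77.5%), against 84.3% of all genes kept. A further 13 had such a mean in root without leaf, 13 in leaf without root and 23 in neither (10.6%, against 8.82% of all genes kept). The share past the threshold was 1.79% of the genes of both organs, 3.07% of those of root without leaf, 3.78% of those of leaf without root and 2.33% of those of neither. In all 8 root and leaf libraries 141 of the 218 reached 1 FPKM (64.7%, against 78.1% of all genes kept), and 8 were listed at 0 in all of them (3.67%, against 247 of 11185 or 2.21%). Their median level was 13.1 FPKM in CuSO4 pollen, 10.2 FPKM under bulk CuO, 3.17 FPKM under nanoparticles and 0.661 FPKM in control pollen. In leaf the median lay between 10.5 and 16.9 FPKM and in root between 11.7 and 14.6 FPKM. The levels in CuSO4 and control pollen were fixed by the choice of these genes. In CuSO4 pollen 61 of the 218 exceeded every root and leaf library (28.0%, against 26.5% of all genes kept), and 57 were below every one (26.1%, against 47.5%). These shares use the CuSO4 level by which the 218 were chosen, so they are a description only.

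**Figure D4:**
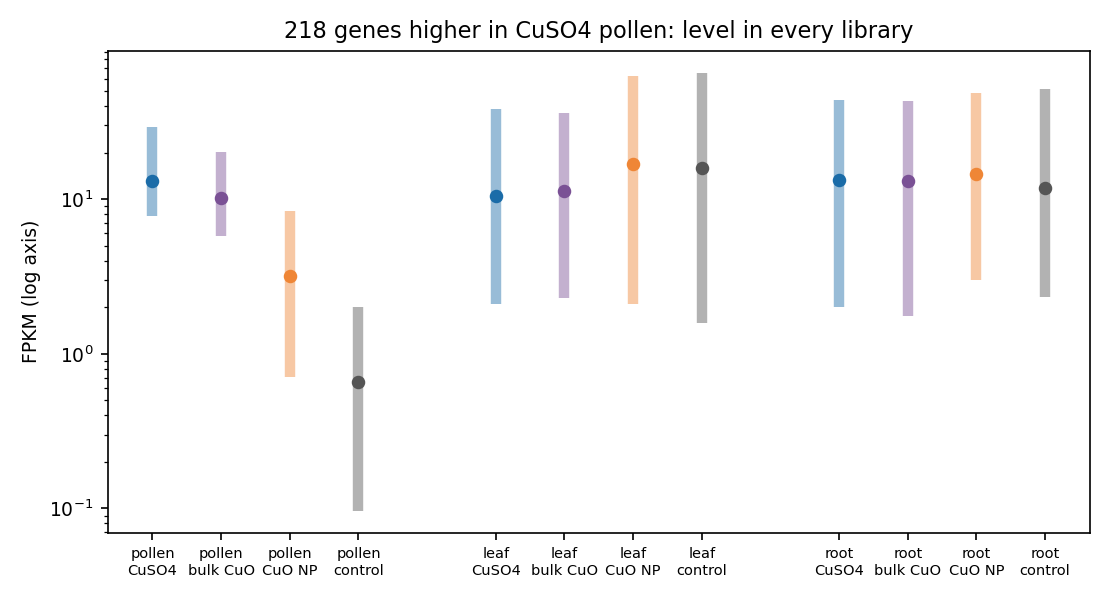
FPKM (y axis, log scale) of the 218 genes higher in CuSO4 than in control pollen, in each of the 12 libraries (x axis; NP, nanoparticles); points are medians and bars run between the quartiles. The genes were selected on the first and the last pollen library, at medians of 13.1 and 0.661 FPKM, and every root and leaf median lies at 10.5 FPKM or above.

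The transcripts that set leaf and root apart were summed in each pollen library. Lists were made from the root and leaf libraries alone: the 100 most abundant genes of an organ among those whose lowest library was at least 20 times the highest library of the other organ. The leaf-rich genes averaged 225 to 6946 FPKM in leaf. Their summed level was 430 FPKM in CuSO4 pollen, 433 FPKM under bulk CuO, 487 FPKM under nanoparticles and 483 FPKM in control pollen, against 71900 to 118600 FPKM in leaf libraries. Without the 1 gene of highest pollen level these sums were 250.2, 275, 281 and 250.5 FPKM. In CuSO4 pollen 30 of the 100 were at 1 FPKM or more, against 29 in control pollen. The root-rich genes averaged 46.1 to 3630 FPKM in root and, without the 1 gene of highest pollen level, summed to 155 FPKM in CuSO4 pollen, 156 FPKM under bulk CuO, 149 FPKM under nanoparticles and 145 FPKM in control pollen. In each pollen library 70 to 73 of them were listed at 0. Of the leaf-rich genes 28 passed the filter on the pollen mean and of the root-rich genes 16 did, and 0 of either were past 2.3 in either direction, where 1.95% of all genes kept were higher and 0.0805% lower. With at least 10 times between the organs, a setting chosen after the data were seen, 1 of 29 root-rich genes kept was higher. So few genes give no reading against those shares. Markers of anther tissues could not be looked up without gene names, and the part of other floral cells in the result was not tested. Within a library, fewer cells of a type and less RNA per cell cannot be told apart.

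In leaf and root, the genes that were higher in CuSO4 pollen were not, on the whole, higher under the same material. Leaf and root have control libraries of their own, which took no part in the choice of genes. In leaf, 182 of the 218 had a mean of at least 1 FPKM. Their median level was 16.3 FPKM in CuSO4 leaf and 24.8 FPKM in control leaf, and the median log2 difference was -0.37 with quartiles of -1.42 and 0.62. Among the 9776 genes kept in both pollen and leaf the median was -0.01 with quartiles of -0.54 and 0.53. Past 2.3, 6 of the 182 (3.3%) were higher and 22 (12.1%) lower in CuSO4 leaf, where 1.65% of all these genes were higher and 2.83% lower. Both tails held a larger share of the 182 genes than of all genes, and the lower tail the more so. The median in control leaf was 13.7 FPKM for all these genes, below that of the 182. A fall past 2.3 needs at least 3.92 FPKM in the control, and the part of this difference in level was not tested. In root, 182 of the 218 were also measured, with a median log2 difference of -0.10, against -0.11 for the 9855 genes kept in both pollen and root. There 2 of the 182 (1.10%) were higher and 5 (2.75%) lower past 2.3, beside 3 (0.0304%) and 24 (0.244%) of all. In root too, both tails held a larger share of the 182 genes than of all genes, though the counts are small. Cp4.1LG02g02060, which was higher under CuSO4 in pollen, stood at 41.1 FPKM in CuSO4 leaf, against 127 FPKM in control leaf, and at 45.8 FPKM in CuSO4 root, against 21.4 FPKM in control root.

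**Figure D5:**
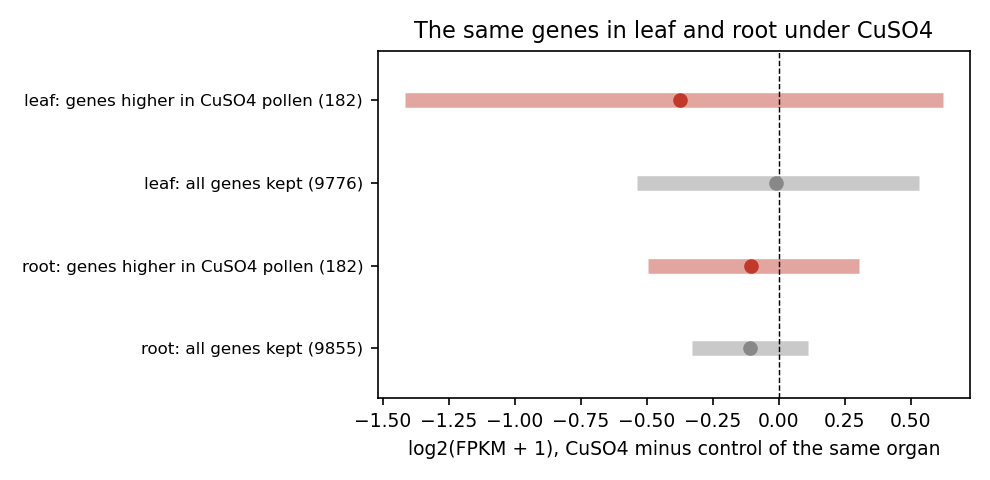
Difference in log2(FPKM + 1) between CuSO4 and control of the same organ (x axis) for the genes higher in CuSO4 pollen and for all genes kept in both organs (y axis, number of genes in brackets); points are medians and bars run between the quartiles. In leaf the genes higher in pollen have a median of -0.37 against -0.01 for all, and in root -0.10 against -0.11.

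Set against the other copper materials, CuSO4 pollen was close to bulk CuO and farther from nanoparticles. Over genes, the log2 difference had an SD of 0.39 from bulk CuO and 0.60 from nanoparticles, beside 0.67 from the control, all 3 values resting on the same CuSO4 library. Past 2.3, CuSO4 pollen had 27 genes (0.241%) above bulk CuO pollen and 14 (0.125%) below it. Against nanoparticles it had 108 genes (0.966%) above and 14 (0.125%) below. The control library enters neither comparison. Most differences from bulk CuO rested on listings at 0: without genes listed at 0 in either library 7 were higher and 2 lower. Cp4.1LG12g07900, described above, led the genes higher than under bulk CuO, and Cp4.1LG00g10930 followed, with 51.4 FPKM in CuSO4 pollen and a listing at 0 in each of the 11 others. On the other side, Cp4.1LG13g02790 was listed at 0 in CuSO4 pollen, against 1023 FPKM under bulk CuO, and Cp4.1LG04g00880 at 0, against 46.1 FPKM. Both were listed at 0 in every library but that of bulk CuO pollen. Genes of this kind were present in 1 or 2 libraries at a high level and listed at 0 elsewhere.

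The 2 genes that stood farthest above nanoparticles had bulk CuO levels near those of CuSO4. Cp4.1LG03g01130 stood at 281 FPKM in CuSO4 pollen, 282 FPKM under bulk CuO, 3.17 FPKM under nanoparticles and 2.59 FPKM in the control. Its log2 difference between CuSO4 and nanoparticles was 6.08, second to the 6.31 of Cp4.1LG02g02060. In root it was lower under CuSO4, with 7.73 FPKM in CuSO4 root and 51.7 FPKM in control root, and it was at most 2.38 FPKM in any leaf library. Of the genes lower than under nanoparticles, Cp4.1LG08g13250 was listed at 0 in CuSO4 pollen, in bulk CuO pollen and in the control, against 22.7 FPKM under nanoparticles. Cp4.1LG03g17740 had 0.235 FPKM in CuSO4 pollen and 0.17 FPKM under bulk CuO, against 21.0 FPKM under nanoparticles, and 13.5 FPKM in the control. This gene was low under both CuSO4 and bulk CuO, and its level in CuSO4 leaf was 25.2 FPKM, against 8.90 FPKM in control leaf.

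The higher genes were spread over all prefixes of the gene IDs, which carry a linkage group number. Their share ran from 0.412% of the genes kept (2 of 485) for LG09 to 2.96% (11 of 372) for LG16. IDs with the LG00 prefix held 6 of the 218 higher and 2 of the 9 lower genes, and 425 of the genes kept. A single pair of consecutively numbered IDs was higher together, of 4673 such pairs with both genes kept. Of the 227 genes past the threshold, 0 had values identical to those of another gene in all 12 libraries. However, 2 of the higher genes, both with the LG00 prefix, had the same values as each other in all 4 pollen libraries, with 35.1 FPKM in CuSO4 pollen and 6.01 FPKM in control pollen, and differed in 1 library, control root. They count as 2 of the 218, their levels are uncertain if they share reads, and that was not tested.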

How the data were processed

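RNA from root, leaf and pollen was made into strand-specific mRNA libraries and read as single reads of 75 bp, per the series design text. It names STAR with default parameters and a reference transcriptome of a cucurbit database, and the submitters' processing notes add cutadapt and StringTie. Neither the labels nor the file state versions or the annotation release. The deposited table holds FPKM, normalized by the authors, for 12 libraries. It gives no read counts, so depth is unknown in absolute terms and no counting interval is given. Relative depth came from the commonest ratio of values between 0.05 and 1.5 FPKM in a pair of libraries.

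The analysis used log2(FPKM + 1), a scale that understates changes of low genes, and kept genes whose 4 libraries of an organ averaged 1 FPKM or more. Differences of 2.3 or more were counted, the threshold the design text states. Named genes are the first 2 per direction by log2 difference whose higher library reached 5 FPKM. Members, lists and rules were chosen with earlier results of these data known. Lists planned by gene name (copper transport, metal binding, oxidative stress, copper proteins, heat shock proteins, pollen wall and tube growth, photosynthesis) could not be applied. Alternatives changed the added value, the filter, the scaling and the treatment of zeros. Python 3.11.15, numpy 2.4.6, pandas 2.3.3 and matplotlib 3.10.9 were used. The counting steps were tested on simulated data with less scatter than between the libraries. Changes were placed there only in genes at 5 FPKM or more in the control, so genes below that level were not covered.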

Additional observations from a re-analysis of the deposited data

Results flagged for a closer look

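Cp4.1LG02g02060 differed in opposite directions between organs under CuSO4. Its log2 difference from the control was 6.56 in pollen and -1.61 in leaf, with 1 library on each side, so the difference between organs was not tested. The rest of the 4 leading genes of the pollen comparison were at most 0.708 FPKM in root and leaf, too low to differ by 1 there. Other named genes also differed in opposite directions. Cp4.1LG03g01130 had a log2 difference of 6.30 in pollen and -2.59 in root, and Cp4.1LG03g17740 one of -3.56 in pollen and 1.40 in leaf.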

How the results depend on the processing

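The excess of higher over lower genes against the control was found under every setting tried: higher genes made up 96.0% of those past the threshold as reported and 91.9% to 98.8% under the alternatives. Counts moved with the value added before the log, the filter, the genes listed at 0 and the threshold. With 0.1 added they were 564 higher and 30 lower against the control, 75 and 29 against bulk CuO, and 304 and 37 against nanoparticles. With 5 they were 42 and 1, 8 and 3, and 26 and 2. With a mean of at least 5 FPKM they were 149 and 4, 14 and 6, and 69 and 5. Without genes listed at 0 they were 167 and 2, 7 and 2, and 71 and 3. At a threshold of 1, chosen after the data were seen like that of 3, they were 959 and 71, 148 and 61, and 603 and 138, and at 3 they were 88 and 6, 14 and 6, and 54 and 7. Against the control, shifting libraries to a common median gave 170 higher and 15 lower genes and quantile normalization 151 and 11. The median difference from the control was 0.044 with 5 added and 0.022 with a mean of at least 5 FPKM, and the SD over genes was 1.07 with 0.1 added and 0.39 with 5. Of 48 values of named genes under alternatives, 47 kept their direction and side of the threshold, and that of Cp4.1LG09g11020 was -2.18 with 5 added. The summed leaf-rich and root-rich levels in CuSO4 pollen were 0.89 and 0.919 of those in control pollen. In the root-rich list 1 gene held 1753 of 1907 FPKM in CuSO4 pollen and 1930 of 2075 FPKM in control pollen. With lists of 50 genes the ratios were 1.003 and 1.12, so they give no direction. The causes of these changes were not tested. No paired analysis was possible because each group has 1 library, and for the same reason no replicate could be left out.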
